A study of Mus musculus with 18 samples.

Results

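Transcript levels of 10 Wnt target and feedback genes were followed across 18 mouse RNA-seq libraries in 6 groups of 3. The genes were Lgr5, Rnf43, Znrf3, Axin2, Lef1, Tcf7, Notum, Nkd1, Sp5 and Ascl2, found by symbol in the table of tumour cells (22612 lines) and by the Ensembl identifier of the symbol in the table of endothelial cells (55401 lines). They were chosen by their place in the Wnt pathway, with values of these libraries already known. The rule names no threshold and no comparison. Levels, fold changes and calls of these 10 genes are therefore a description, given with no p-value.

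The endothelial libraries came from CD45- CD31high cells sorted from wild-type C57BL/6 mice. Cells without the PNAd epitope are called blood vessel endothelial cells (BECs), and cells with it high endothelial cells (HECs), the cells lining the venules by which lymphocytes enter lymph nodes. BEC normal came from the fat pad and BEC tumour from primary EO771 tumours. HEC normal came from lymph nodes, and HEC tumour from tissue labelled lymph node metastases. The remaining libraries were EO771 cells in culture, a breast cancer line of the mouse, treated with vehicle (EO771 vehicle) or with 12-HETE (EO771 12-HETE), a lipid derived from arachidonic acid by ALOX12. The mice were a few weeks old when obtained, and the number of mice behind each library is not given in the sources used here. BECs and HECs came from different organs, so cell type and organ cannot be told apart.

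In the canonical Wnt pathway, a Wnt ligand bound to a Frizzled receptor keeps beta-catenin from being destroyed, and beta-catenin then joins TCF/LEF factors at DNA. Many of the genes switched on in this way act back on the pathway. RNF43 and ZNRF3 are ubiquitin ligases that take Frizzled receptors off the cell surface, and LGR5 is an R-spondin receptor that restrains them. AXIN2 is a scaffold of the beta-catenin destruction complex, NKD1 binds Dishevelled, and NOTUM is a secreted enzyme that strips the lipid from Wnt ligands. LEF1 and TCF7 are themselves TCF/LEF factors, SP5 is a zinc finger repressor, and ASCL2 is a transcription factor of intestinal stem cells. Endothelial cells of the brain are known for strong Wnt activity. LEF1 and TCF7 are also abundant in T cells.

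The sequence letters that TCF/LEF factors read were looked for around the start sites of these genes. Windows of 300 bases around annotated starts (RefSeq, GRCm38.p6) were found for 7 of the 10 genes, 12 windows in all. Lgr5, Znrf3 and Notum had no entry in that set. CTTTGAT or CTTTGAA, on either strand, stood in 2842 of 32851 windows of that length, or 8.65%. Of the 7 genes, only Sp5 held a match in these windows. It is printed because Sp5 is the listed gene with the highest level per length in 4 of the 6 groups, and the Axin2 window beside it for comparison. Capitals mark the match, which begins 104 bases before the start.
Sp5, chr2:70474673-70474972, plus strand: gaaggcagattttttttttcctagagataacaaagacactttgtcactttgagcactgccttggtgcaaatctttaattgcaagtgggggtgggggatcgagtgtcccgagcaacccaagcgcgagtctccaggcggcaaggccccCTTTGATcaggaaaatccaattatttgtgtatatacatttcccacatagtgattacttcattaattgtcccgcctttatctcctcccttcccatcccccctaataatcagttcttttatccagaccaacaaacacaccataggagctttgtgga
Axin2, chr11:108920099-108920398, plus strand: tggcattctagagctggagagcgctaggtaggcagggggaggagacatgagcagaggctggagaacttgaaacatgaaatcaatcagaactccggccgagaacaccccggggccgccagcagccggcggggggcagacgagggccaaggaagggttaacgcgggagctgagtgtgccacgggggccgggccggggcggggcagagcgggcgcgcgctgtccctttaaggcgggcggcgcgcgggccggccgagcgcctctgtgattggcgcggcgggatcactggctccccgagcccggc
A match describes the letters only, and its absence from the Axin2 window says only that these letters are not in those 300 bases.

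Sequencing totals ran from 17.3 to 18.6 M counts in the EO771 libraries. Endothelial totals ran from 56.4 to 79.4 M, in values whose low end falls in steps of 3.69 to 3.77, so that 1 unit is not 1 fragment. Divided by the step, they came to between 15.0 and 21.2 M fragments. Levels below are values normalised by DESeq2 size factors. A value of 3 fragments is about the highest expected count that an observed 0 allows. It is about 9.87 to 12.1 normalised units in an endothelial group and about 3 counts in EO771 cells. This limit covers counting error only, as do the counting intervals given below, which leave out the spread between libraries. A gene was called when the adjusted p of DESeq2 over all genes tested was under 0.05 and the fold change was over 2. Testing took in each gene whose mean across a table's libraries reached 10. That left 9 of the 10 listed genes in EO771 cells and 6 in endothelial cells, where Lgr5, Rnf43, Notum and Ascl2 fell short. General endothelial markers summed to between 2407 and 3135 CPM (counts scaled to the library total) in the endothelial libraries and to between 6.71 and 10.8 CPM in EO771 cells. High endothelial markers summed to between 970 and 3052 CPM in HECs and to at most 4.28 CPM in BECs, although Madcam1 and Ccl21a were at 0 in 5 and 6 of the 6 HEC libraries. Coordinates below are those of whole genes in GRCm38. In HEC normal replicate 2, Chst4, which makes the PNAd epitope, had a value of 4, against 19627 and 21144 in the other HEC normal libraries. Enpp2 was also low there, at 8 against 155 and 285. Glycam1 (38444 against 39527 and 42210) and Fut7 (26646 against 27675 and 30974) were close to the other libraries. In HEC tumour replicate 3, Fut7 had a value of 12879, against 57586 and 66399 in the other HEC tumour libraries. The study describes the replicates as independent experiments, and the labels do not say whether they came from separate mice or cultures. In bulk RNA, fewer cells of a type and less RNA per cell cannot be told apart.

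EO771 cells transcribed 9 of the 10 genes. Per kb of exon length, the order in vehicle was Sp5 (48.2 ± 5.47 CPM per kb, SD, n = 3), Tcf7 (43.3 ± 3.06), Axin2 (35.1 ± 1.20), Rnf43 (16.5 ± 0.675), Nkd1 (15.8 ± 1.52), Znrf3 (5.84 ± 1.53), Lgr5 (4.19 ± 1.38), Notum (3.34 ± 0.562) and Lef1 (0.0840 ± 0.0125). The neighbours Sp5 and Tcf7, Rnf43 and Nkd1, Znrf3 and Lgr5, and Lgr5 and Notum differed by less than the sum of their SDs. Ascl2 had 1 count in the 6 libraries. Tcf7 stood above Lef1 per kb in each of the 6 libraries.

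With 12-HETE, the listed gene that differed most was Lgr5 (chr10:115450311-115587780, minus strand). Vehicle libraries held 774, 512 and 1012 normalised counts of Lgr5, and 12-HETE libraries held 3170, 3019 and 3193. The groups did not overlap, and the lowest 12-HETE library stood above the highest vehicle library. The means were 766 ± 250 and 3127 ± 94.8 (SD, n = 3), a log2 fold change of 2.03 ± 0.21 (SE). Per kb, Lgr5 moved from the seventh to the sixth place of the order, at 16.7 ± 0.483 CPM per kb with 12-HETE. Its level with 12-HETE lay above that of Znrf3, which was 9.73 ± 0.501 CPM per kb.

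Notum (chr11:120653788-120661175, minus strand) was the other gene called higher. Vehicle libraries held 132, 170 and 128 normalised counts and 12-HETE libraries 376, 343 and 264, again with no overlap. The log2 fold change was 1.19 ± 0.20. The exons of Notum overlap those of Myadml2os and Notumos on the other strand, and the counting is not stated to use strand, so part of these counts may belong to either of them.

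The receptor-removing ligases and the Dishevelled binder had higher levels with 12-HETE as well, at less than 2-fold. Znrf3 held 836, 600 and 1029 normalised counts in vehicle and 1464, 1324 and 1418 with 12-HETE, a log2 fold change of 0.77 ± 0.19. Nkd1 went from 1282 ± 118 to 1938 ± 80.0, a log2 fold change of 0.60 ± 0.11. Rnf43 went from 1931 ± 98.5 to 2719 ± 87.6, a log2 fold change of 0.49 ± 0.09. None of these 3 genes overlapped between the groups, and none passed the fold limit of the call. Of the 9 listed genes tested, 5 had all 12-HETE libraries above all vehicle libraries, where 30.2% of the genes tested did.

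Other targets did not follow Lgr5. Axin2 held 3387, 3399 and 3553 normalised counts in vehicle and 3250, 3088 and 3093 with 12-HETE, a log2 fold change of -0.13 ± 0.08. Sp5 overlapped between the groups, at 1804 ± 196 and 1818 ± 70.0, with a log2 fold change of 0.01 ± 0.11. Tcf7 was at 2024 ± 160 in vehicle and 1628 ± 79.0 with 12-HETE, a log2 fold change of -0.31 ± 0.10. Lef1 had between 6.90 and 15.3 normalised counts in every library, and its log2 fold change of -0.66 ± 0.58 rests on 40 and 25 counts. For Axin2, Tcf7 and Lef1 all 12-HETE libraries lay below all vehicle libraries, as they did for 30.5% of the genes tested. Neither Lef1 nor Axin2 is free of overlap with a gene on the other strand, which is Gm43352 for Lef1 and Gm11670 for Axin2.

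Of the 9 listed genes tested, 2 were called higher (Lgr5 and Notum) where 2.38% of the 11602 genes tested were called higher, and 0 were called lower where 7.79% were. Without a fold limit, 5 listed genes were higher and 1 lower at an unadjusted p under 0.05 by DESeq2, and edgeR also called 2 higher and 0 lower. The median log2 fold change was 0.49 over the 9 listed genes and 0.00 over all genes tested. The 12-HETE libraries resembled each other more than the vehicle libraries did. Leaving out vehicle replicate 3 moved the count of all genes called higher from 276 to 511. Lgr5 and Notum remained the only listed genes called under each of the 10 alternatives, with log2 fold changes between 1.80 and 2.28 for Lgr5 and between 1.09 and 1.33 for Notum. Of 8 fibroblast and pericyte markers, Dcn held 7133 to 10518 counts in vehicle and 17888 to 19142 with 12-HETE, and Pdgfra 65 to 86 and 164 to 188. Col1a1 held at most 13 counts, Lum was at 0 and the other 4 held at most 5 counts in every library. Epithelial and tumour markers summed to between 3243 and 4251 CPM in vehicle and between 2184 and 2240 CPM with 12-HETE. The part of these differences in the Wnt results was not tested.

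**Figure D1:**
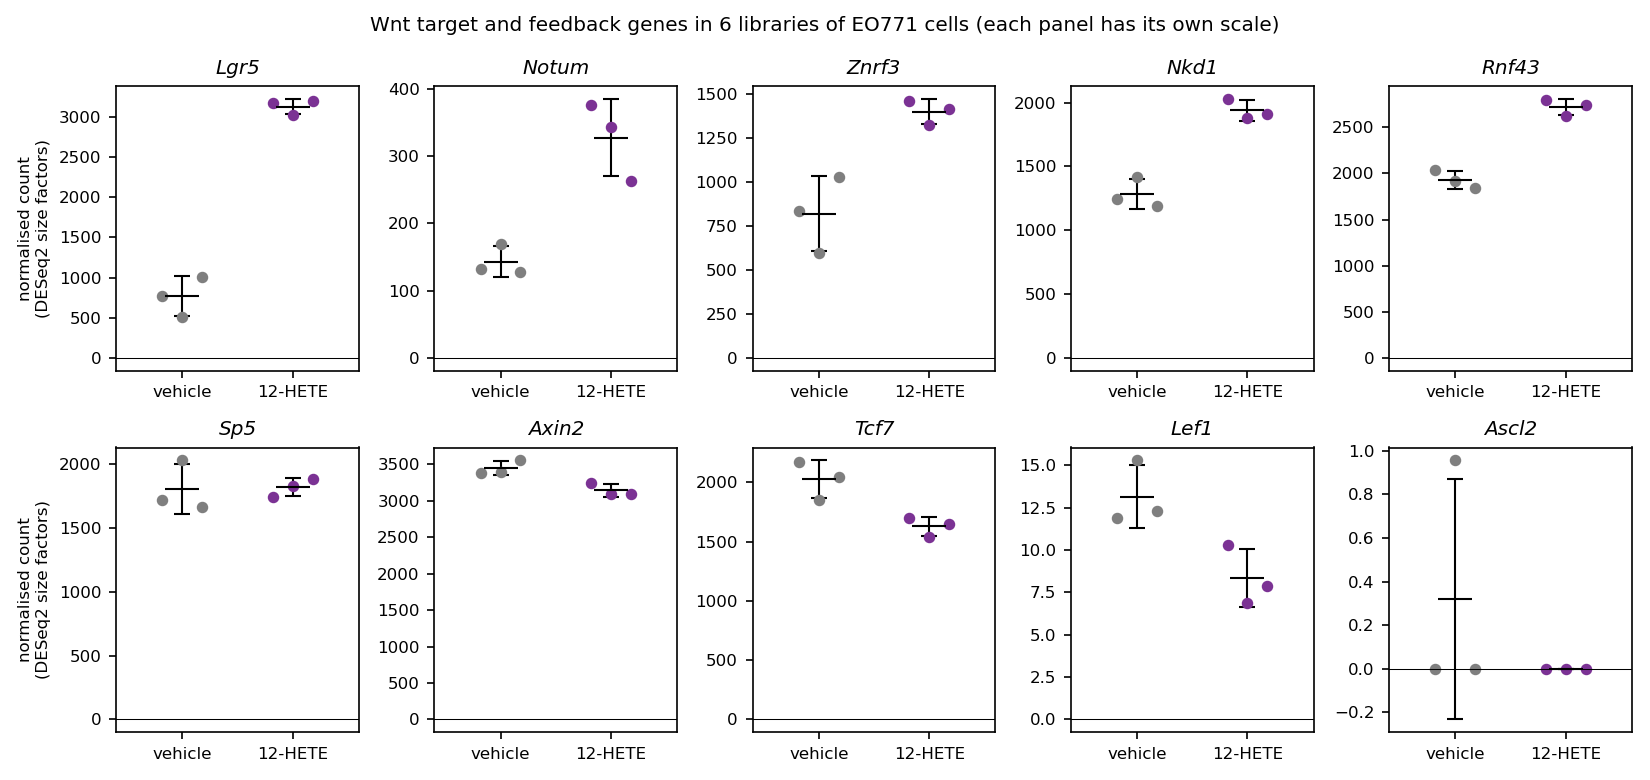
Normalised counts of the 10 Wnt genes in EO771 cells, 1 panel a gene with its own linear y axis. Points are libraries, and the line and bars are the mean ± SD of 3. The 3 points of 12-HETE lie above the 3 of vehicle for Lgr5, Notum, Znrf3, Nkd1 and Rnf43, and below them for Axin2, Tcf7 and Lef1.

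**Figure D2:**
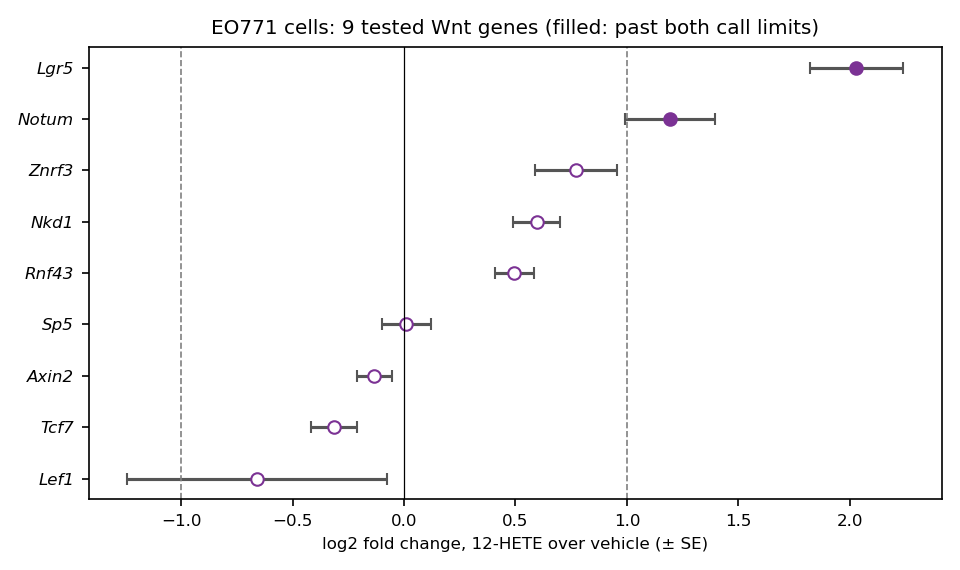
Log2 fold change of 12-HETE over vehicle for the 9 Wnt genes tested in EO771 cells, with SE bars. Filled points passed both limits of the call and dashed lines mark a 2-fold change. Lgr5 at 2.03 and Notum at 1.19 are filled, and Sp5 and Axin2 lie near 0.

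Other genes of the pathway were counted in 8 lists by role, 95 genes in all, of which 50 were tested in EO771 cells. Of these 50, 4 were called higher, where 2.38% of all genes tested were, and 2 lower, where 7.79% were. Their median log2 fold change was 0.07. A gene given from these lists with an adjusted p was named because it was called, so that p is a description only. Among Wnt ligands, 2 of the 4 tested were called higher. Wnt6 held 182 ± 56.7 normalised counts in vehicle and 438 ± 15.5 with 12-HETE (log2 fold change 1.27 ± 0.22, DESeq2 adjusted p = 1.17e-07). Among receptors and co-receptors, 2 of 12 were called higher and 0 lower (by edgeR also 2 and 0, and 5 and 1 at an unadjusted p under 0.05). Ror1, a receptor of Wnt5a-type ligands, went from 34.4 ± 8.62 to 108 ± 12.7 (1.65 ± 0.28, DESeq2 adjusted p = 3.99e-08). Tspan12, which aids signalling through Frizzled4, went from 684 ± 47.1 to 1741 ± 80.9 (1.35 ± 0.10, DESeq2 adjusted p = 1.55e-37). Lgr4, a relative of Lgr5 that also binds R-spondins, was at 463 ± 75.4 and 820 ± 69.2, under the fold limit (0.83 ± 0.15).

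Myc, a cell growth regulator reported as a Wnt target, was one of the genes called lower. It fell from 10654 ± 1031 normalised counts in vehicle to 1712 ± 34.9 with 12-HETE (log2 fold change -2.64 ± 0.10, DESeq2 adjusted p = 1.05e-142). Of the 10 other reported Wnt targets tested, Myc was the only one called in either direction. The 12 genes of the destruction complex and Dishevelled gave 0 calls with DESeq2 and 0 with edgeR, and 3 were higher and 3 lower at an unadjusted p under 0.05. Ctnnb1, which encodes beta-catenin, was at 3473 ± 369 in vehicle and 4847 ± 247 with 12-HETE.

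Sorted endothelial cells held far less of most of the listed genes. Lgr5, Rnf43 and Ascl2 had group means at or under 3 fragments in all 4 endothelial groups, and Lgr5 was at 0 in 10 of the 12 libraries. Notum had group means between 0 and 13.6 normalised units, above the limit in BEC normal only, where the libraries held 18.5, 22.4 and 0. Nkd1 had group means between 2.79 and 16.9, with libraries of at most 26.8. All HEC tumour libraries of Nkd1 (0, 3.95 and 4.43) lay below those of BEC tumour (21.3, 6.77 and 22.7), a ratio of 6.06 (95% exact counting interval 1.42 to 55.2) that was not called. EO771 vehicle held 15.8 ± 1.52 CPM per kb of Nkd1, against 0.0552 ± 0.0288 in BEC tumour. The part of tumour cells in that level was not tested. Znrf3, Sp5, Tcf7, Lef1 and Axin2 had higher levels in at least 1 group and are described next. The 2 tables were normalised separately, so EO771 and endothelial levels are given side by side without a test.

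Znrf3 (chr11:5276324-5444847, minus strand) lay above 3 fragments in every endothelial library, as no other listed gene did. Its libraries held 960, 504 and 571 normalised units in BEC normal and 828, 1008 and 925 in BEC tumour. In HEC normal they held 713, 720 and 571, and in HEC tumour 1167, 765 and 1147. The order of the means was HEC tumour (1026 ± 227), BEC tumour (920 ± 89.7), BEC normal (678 ± 247) and HEC normal (668 ± 83.7), and the libraries of neighbours in this order overlapped. HEC tumour lay above HEC normal in every library, with a log2 fold change of 0.62 ± 0.25, under the fold limit. Znrf3 was called in none of the comparisons of 2 groups. The genes whose pattern over the 12 libraries was most like that of Znrf3 were Ankrd16 (Pearson r = 0.91 of log2 values), Gm6475 (0.91) and Flvcr1 (0.88), among libraries that share their groups and depth.

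Sp5 (chr2:70474923-70477729, plus strand) separated the endothelial groups most clearly. Its libraries held 0, 0 and 16.2 normalised units in BEC normal and 55.7, 90.5 and 97.6 in BEC tumour. They held 378, 378 and 460 in HEC normal and 218, 333 and 312 in HEC tumour. No neighbours in the order of the 4 groups overlapped, from BEC normal at 5.42 ± 9.38 to BEC tumour at 81.3 ± 22.5, HEC tumour at 288 ± 61.0 and HEC normal at 405 ± 47.2. HEC normal exceeded BEC normal by a ratio of 74.8 (95% exact counting interval 31.2 to 298), since BEC normal held 4 fragments. HEC tumour exceeded BEC tumour 3.54-fold, a log2 fold change of 1.82 ± 0.65. That call was lost, with log2 fold changes between 1.61 and 1.76, without BEC tumour replicate 1, HEC tumour replicate 2 or HEC tumour replicate 3, and at 1.80 with TMM factors. The 3 genes most like Sp5 in pattern were AC154442.1, Rpl21-ps11 and 2900060N12Rik, each with a Pearson r of at least 0.98 over the 12 libraries. As for Znrf3, these libraries share their groups and depth.

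Axin2 (chr11:108920349-108950783, plus strand) was ordered in part as Sp5 was, at lower values. BEC normal held about 1 fragment in each library, or 3.53, 4.71 and 4.06 normalised units. BEC tumour held 31.5, 47.4 and 10.5, HEC normal 102, 13.2 and 63.1, and HEC tumour 58.9, 39.5 and 52.0. BEC normal lay below all 9 other libraries, and the other 3 groups overlapped with each other. The ratio of HEC normal to BEC normal was 14.5 (95% exact counting interval 5.08 to 79.1) and that of BEC tumour to BEC normal was 7.27 (2.41 to 40.4). HEC normal replicate 2, the library nearly without Chst4, was the low one of its group. Without it the fitted log2 difference between HEC normal and BEC normal went from 3.87 to 4.35.

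Sp5 and Axin2 were thus higher in BEC tumour than in BEC normal, and not in HEC tumour than in HEC normal. In HECs the log2 fold change with tumour was -0.49 ± 0.64 for Sp5 and -0.25 ± 0.75 for Axin2. The difference between both changes, the interaction, was -4.40 ± 0.98 for Sp5 and -3.12 ± 1.13 for Axin2. The call of Axin2 was lost without BEC tumour replicate 2 (-2.61) and without HEC normal replicate 1 (-2.48). With values divided by their step, Axin2 fell under the filter and was not tested. Epithelial and tumour markers summed to between 3.61 and 6.92 CPM in BEC normal and between 19.95 and 93.6 CPM in BEC tumour, against 3243 CPM or more in vehicle-treated EO771 cells. BEC tumour replicate 3, with the highest sum, had the highest Sp5 of its group and the lowest Axin2. BEC tumour held 19, 31 and 299 units of Epcam and 38, 212 and 2564 of Krt8. These EO771 cells held 48.2 CPM per kb of Sp5 and 35.1 of Axin2, against 0.576 ± 0.158 and 0.0806 ± 0.0502 in BEC tumour. In HECs the marker sum was between 27.9 and 31.2 CPM without and between 31.2 and 34.1 CPM with tumour, and Krt19 alone held 1705 to 2008 units there while Epcam held at most 6. Myeloid markers summed to between 108 and 128 CPM in BEC normal and between 1486 and 1996 CPM in BEC tumour. Most of the BEC normal sum was Cd68, at 6379 to 9034 units. The part of RNA from other cells in the BEC tumour levels was not tested.

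**Figure D3:**
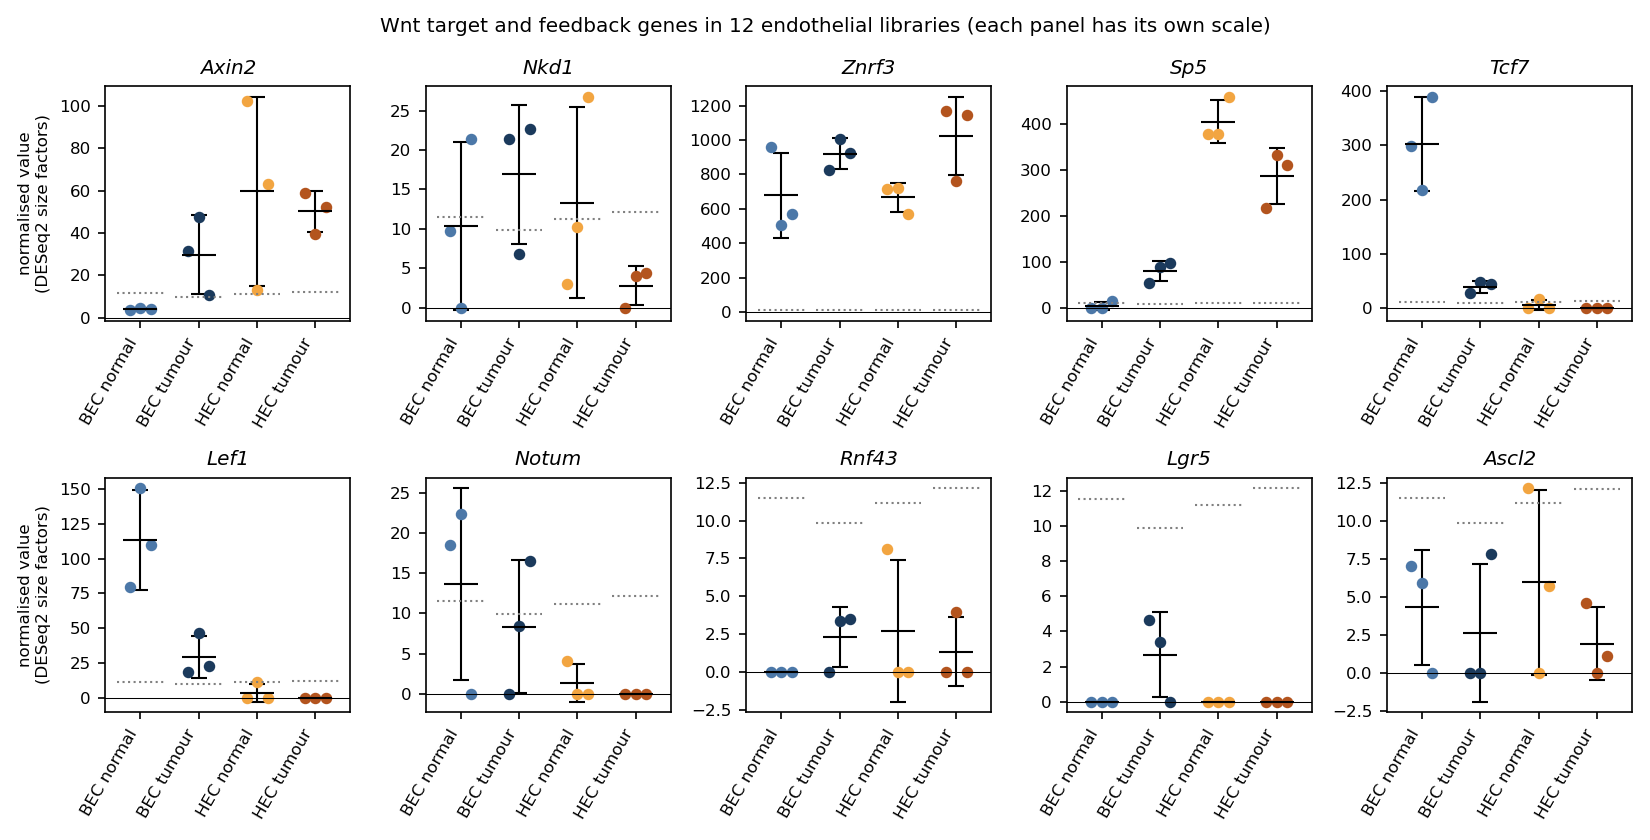
Normalised values of the 10 Wnt genes in the 12 endothelial libraries, 1 panel a gene with its own linear y axis. Points are libraries, the line and bars are the mean ± SD of 3, and dotted lines mark 3 fragments. Sp5 means run upwards from BEC normal to BEC tumour, HEC tumour and HEC normal, while Tcf7 and Lef1 are highest in BEC normal.

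Tcf7 and Lef1 ran the other way. Tcf7 (chr11:52252371-52283014, minus strand) held 300, 218 and 390 normalised units in BEC normal and 26.9, 48.2 and 43.6 in BEC tumour. In HEC normal it held 0, 16.3 and 0, and in HEC tumour 0 in each of 3 libraries. Lef1 (chr3:131110471-131224356, plus strand) held 79.4, 151 and 110 in BEC normal and 18.6, 46.5 and 22.7 in BEC tumour. It held 0, 11.2 and 0 in HEC normal and 0 in each HEC tumour library. BEC normal stood above BEC tumour without overlap for both genes, and BEC tumour above both HEC groups. Per kb, Tcf7 was the highest of the 10 genes in BEC normal, at 1.67 ± 0.472 CPM per kb, close to Znrf3 at 1.25 ± 0.470.

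BEC tumour was 7.65-fold below BEC normal in Tcf7, a log2 fold change of -2.93 ± 1.05, and 3.87-fold below it in Lef1, at -1.95 ± 1.14. Tcf7 was called and Lef1 was not. The call of Tcf7 was lost without BEC normal replicate 1 or 3 or BEC tumour replicate 1, with values of -2.94, -2.72 and -2.72, and with TMM factors at -2.90. In HEC tumour, Tcf7 was at least 3.26-fold lower than in BEC tumour and Lef1 at least 2.41-fold lower, taking 3 fragments per library as the limit of a count of 0. HEC normal was below BEC normal by a ratio of 55.7 for Tcf7 (95% exact counting interval 23.8 to 228) and of 30.3 for Lef1 (9.75 to 146). All reads of both genes in HEC normal came from replicate 2.

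Markers of other cells were read beside both genes. Of 12 T cell markers, 9 to 11 were at 0 in each BEC normal library, Cd3e, Cd3d and Cd3g among them in all 3, and the sum was between 0.135 and 0.530 CPM. The sum was between 25.9 and 46.9 CPM in BEC tumour, where 2 to 4 markers were at 0 and Cd3e, Cd3d and Cd3g each had a value of at most 31, and between 0.0596 and 0.229 CPM in HECs. Most of the BEC tumour sum was Cd4, at 1620 to 2901 units, and Il7r, at 197 to 372. Fibroblast and pericyte markers summed to between 864 and 879 CPM in BEC normal, 89.0 and 121 CPM in BEC tumour, 25.7 and 27.5 CPM in HEC normal, and 11.3 and 11.9 CPM in HEC tumour. Of these 8 markers, 1 was at 0 in each BEC normal library. Most of the BEC normal sum was Acta2, at 36856 to 48160 units. Pdgfra held 826 to 1358 units in BEC normal and 1027 to 1139 in HEC normal. Not all markers followed the sum in BEC tumour. Dcn held 127 to 275 units in BEC normal and 238 to 821 in BEC tumour, and Lum 0 and 4 to 59. EO771 vehicle held 43.3 ± 3.06 CPM per kb of Tcf7 and 0.0840 ± 0.0125 of Lef1, against 0.224 ± 0.0634 and 0.0495 ± 0.0256 in BEC tumour. Epithelial and tumour markers, given above, summed to between 19.95 and 93.6 CPM in BEC tumour and between 3243 and 4251 CPM in EO771 vehicle. The part of any of these kinds of cell in the levels of Tcf7 and Lef1 was not tested.

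**Figure D4:**
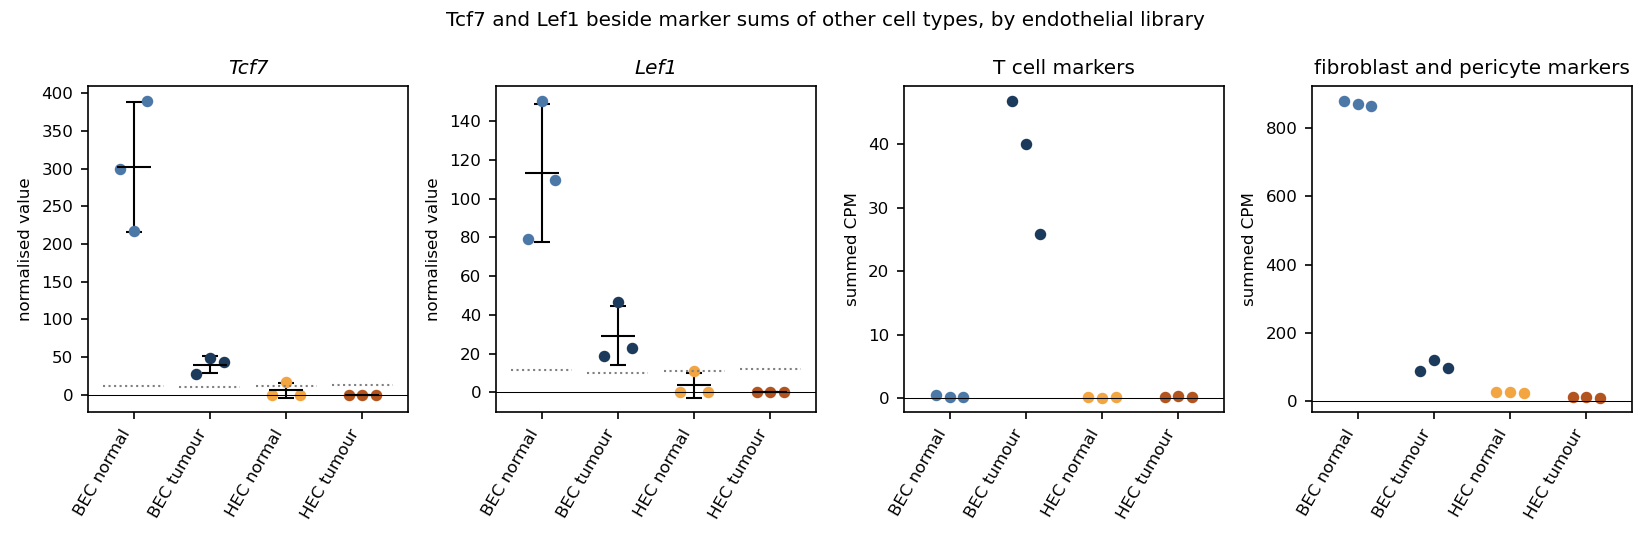
Normalised values of Tcf7 and Lef1 (left panels, mean ± SD of 3, dotted lines at 3 fragments) beside the summed CPM of T cell and of fibroblast and pericyte markers (right panels) in the 12 endothelial libraries. Axes are linear. Tcf7, Lef1 and the fibroblast and pericyte sum, mostly Acta2, are highest in BEC normal, and T cell markers, mostly Cd4, in BEC tumour.

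Of the 6 listed genes tested in endothelial cells, 2 were called higher in HEC normal against BEC normal (Axin2 and Sp5) and 2 lower (Lef1 and Tcf7), where 17.1% and 15.1% of the 18511 genes tested were. In HEC tumour against BEC tumour, 1 was called higher (Sp5) and 2 lower (Lef1 and Tcf7), where 11.2% and 10.7% were. In BEC tumour against BEC normal, 2 were called higher (Axin2 and Sp5) and 1 lower (Tcf7), where 12.4% and 10.8% were. In the interaction, 2 were called lower (Axin2 and Sp5), where 12.1% were, and 0 higher, where 11.2% were. By edgeR the interaction also gave 2 and 0, and at an unadjusted p under 0.05 also 2 and 0. Libraries that did not overlap were also counted: 2 listed genes lay above and 2 below in HEC normal against BEC normal (32.7% and 34% of all genes tested), and 1 and 3 in HEC tumour against BEC tumour (30.9% and 31.8%). In HEC tumour against HEC normal 1 lay above and 1 below (24.7% and 24.1%), and in BEC tumour against BEC normal 2 and 2 (29.1% and 30.4%). These comparisons share groups, so their calls are not independent. HEC tumour against HEC normal gave 0 calls higher, where 4.58% were called, and 2 lower (Lef1 and Tcf7), where 3.21% were. By edgeR both counts were 0, and at an unadjusted p under 0.05 they were 1 and 2. For both genes both groups lay at or under the limit of 3 fragments and the difference came from HEC normal replicate 2 alone. Without that library the fitted change was 0, so no size of change can be given.

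Of the 95 other pathway genes, 73 were tested in endothelial cells, and HEC normal had more of them lower than higher against BEC normal (30 and 5, where 15.1% and 17.1% of all genes were called). Without HEC normal replicate 2 the counts were again 30 and 5. The sum of fibroblast and pericyte markers went the same way, at 864 to 879 CPM in BEC normal and 25.7 to 27.5 CPM in HEC normal. Acta2 made up most of the BEC normal sum, while Pdgfra held 826 to 1358 units there and 1027 to 1139 in HEC normal. The part of such cells in these differences was not tested. The median log2 fold change of the 73 was -0.62, against 0.00 over all genes. Of 17 receptors and co-receptors, 9 were called lower and 0 higher (by edgeR also 9 and 0, and 14 and 2 at an unadjusted p under 0.05). The receptor Ror2 was at 1154 ± 126 in BEC normal and 0 in HEC normal, at least 103-fold lower. Fzd9 was at 471 ± 38.1 and Fzd3 at 319 ± 50.1 in BEC normal, and both were at 0 in HEC normal, at least 42.1-fold and 28.5-fold lower. Mfsd2a, a lipid transporter of brain endothelium reported as a Wnt target, was at 279 ± 70.1 and 0, at least 24.9-fold lower. Sox9 was at 1786 ± 101 in BEC normal and 1.35 ± 2.34 in HEC normal, under the fragment limit given above. The 6 R-spondins and their receptors had 2 members tested, Lgr4 and Lgr6, and both were lower in HEC normal (-1.87 ± 0.15 and -3.13 ± 0.22).

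The 5 pathway genes called higher in HEC normal included Frzb, a secreted Wnt inhibitor, at 895 ± 90.3 against 65.1 ± 5.91 (log2 fold change 3.77 ± 0.18, DESeq2 adjusted p = 2.68e-93). Wnt9a, a ligand, was at 743 ± 73.9 against 84.1 ± 1.55 (3.14 ± 0.21, DESeq2 adjusted p = 8.57e-50). Of the other reported targets, Fgfbp1 was at 246 ± 53.9 against 2.53 ± 2.21, with the BEC normal mean under the fragment limit given above. Ephb2 was at 1159 ± 39.9 against 216 ± 16.6 (2.42 ± 0.21, DESeq2 adjusted p = 6.29e-31). Slc2a1, the glucose transporter GLUT1, was at 22896 ± 3503 against 7566 ± 396 (1.60 ± 0.10, DESeq2 adjusted p = 2.69e-53). The 12 genes of the destruction complex and Dishevelled gave 0 calls in this comparison by DESeq2 and by edgeR, with 5 higher and 4 lower at an unadjusted p under 0.05. Of 11 ligands 6 were called lower, of 7 secreted inhibitors 3, of 8 nuclear beta-catenin partners 2, of 2 ligand processing genes 1 and of 14 other reported targets 7.

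Between BEC tumour and BEC normal, 25 of the 73 genes were called lower, where 10.8% of all genes tested were, and 5 higher, where 12.4% were. Of 17 receptors and co-receptors, 9 were called lower, among them Fzd9, at 8.64 ± 5.94 against 471 ± 38.1 (-5.76 ± 0.51, DESeq2 adjusted p = 6.93e-28). Sox17, an arterial endothelial factor, was at 3.91 ± 4.20 against 635 ± 185 (-7.36 ± 0.74, DESeq2 adjusted p = 4.19e-22). Sfrp2, a secreted inhibitor, was at 3.53 ± 0.167 against 145 ± 65.4, and the ligand Wnt10b at 4.66 ± 1.83 against 158 ± 45.1. Mfsd2a was at 22.8 ± 15.7 against 279 ± 70.1 (-3.61 ± 0.61, DESeq2 adjusted p = 1.81e-08). Frzb (3.55 ± 0.18), Ephb2 (2.00 ± 0.21) and Wnt9a (1.89 ± 0.21) were higher in BEC tumour. The sum of fibroblast and pericyte markers given above was lower in BEC tumour, and its part in these differences was not tested. Sox17, Fzd9, Sfrp2 and Wnt10b in BEC tumour each rest on a few fragments, with group means under the fragment limit given above. The fitted changes of Sox17 and Fzd9 are therefore imprecise as sizes.

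HEC tumour against BEC tumour gave 19 of the 73 pathway genes lower, where 10.7% of all genes tested were, and 3 higher, where 11.2% were. Fibroblast and pericyte markers summed to 89.0 to 121 CPM in BEC tumour and 11.3 to 11.9 CPM in HEC tumour. Pdgfra among them held 358 to 548 and 430 to 542 units. Myeloid markers summed to 1486 to 1996 CPM and 355 to 374 CPM. In HEC tumour nearly all of the myeloid sum was Cd68, at 20431 to 23546 units, while Adgre1 and Fcgr3 were at 0. The part of these other cells was not tested. Ror2 was at 132 ± 14.7 in BEC tumour and 0 in HEC tumour, at least 10.9-fold lower, and the secreted protein Dkk3 at 221 ± 39.1 and 0, at least 18.2-fold lower. Fzd1 was at 248 ± 127 and 1.48 ± 2.56, Sox9 at 239 ± 85.6 and 1.48 ± 2.56, and the inhibitor Sfrp1 at 117 ± 41.9 and 8.52 ± 10.1. The HEC tumour means of Fzd1, Sox9 and Sfrp1 lie under the fragment limit given above, and Fzd1 and Sox9 were at 0 in 2 HEC tumour libraries. Porcn, which attaches the lipid to Wnt ligands, was higher in HEC tumour (133 ± 25.1 against 50.1 ± 15.1, log2 fold change 1.41 ± 0.36, DESeq2 adjusted p = 0.000259). Lgr6 was also higher (411 ± 75.3 against 179 ± 26.4, 1.20 ± 0.22, DESeq2 adjusted p = 1.90e-07), as was Fgfbp1 (1.05 ± 0.30, DESeq2 adjusted p = 0.00138).

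HEC tumour against HEC normal gave 3 of the 73 pathway genes higher and 5 lower, or 5 and 6 without HEC normal replicate 2, where 4.58% and 3.21% of all genes tested were called. Lgr6 rose from 99.3 ± 24.2 in HEC normal to 411 ± 75.3 in HEC tumour (2.05 ± 0.23, DESeq2 adjusted p = 6.46e-18). Ephb2 fell from 1159 ± 39.9 to 362 ± 112 (-1.68 ± 0.20, DESeq2 adjusted p = 3.77e-15). Fgfbp1 fell from 246 ± 53.9 to 105 ± 15.1 (-1.22 ± 0.29, DESeq2 adjusted p = 0.000119). The receptor Fzd2 fell from 2232 ± 87.1 to 958 ± 59.9 (-1.22 ± 0.14, DESeq2 adjusted p = 6.07e-17). Bcl9, a co-factor of beta-catenin, fell from 2475 ± 241 to 1172 ± 102 (-1.08 ± 0.10, DESeq2 adjusted p = 3.46e-27).

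In the interaction, 19 of the 73 pathway genes were called higher, where 11.2% of all genes tested were, and 7 lower, where 12.1% were (13 and 8 by edgeR). Within BECs the fibroblast and pericyte sum was 864 to 879 CPM without and 89.0 to 121 CPM with tumour, and its part was not tested. The R-spondin receptors Lgr6 (4.33 ± 0.31) and Lgr4 (1.32 ± 0.21) were among the higher ones. In BECs both were called lower with tumour, by log2 fold changes of -2.28 ± 0.22 for Lgr6 and -1.17 ± 0.14 for Lgr4.

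Of the R-spondin receptors, Lgr5 was at or under 3 fragments in the endothelial groups. Group means of Lgr6 were 867 and 179 in BECs, without and with tumour, 99.3 and 411 in HECs, and 17.96 in EO771 vehicle. Those of Lgr4 were 1127 and 501 in BECs, 308 and 342 in HECs, and 463 in EO771 vehicle. Of the TCF/LEF factors, Tcf7l1 and Tcf7l2 were present in every endothelial group, at 1202 to 2163 and 435 to 605 as group means. Per kb, Tcf7l1 stood above Tcf7 and Lef1 in each of the 4 endothelial groups, and at 0.00957 CPM per kb below both in EO771 vehicle. In HEC tumour, where Tcf7 and Lef1 were at 0, Tcf7l1 held 4.72 and Tcf7l2 1.06 CPM per kb.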

How the data were processed

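RNA-seq was analysed in 12 endothelial and 6 EO771 libraries, 3 in each of 6 groups, grouped by their labels. The authors used STAR for alignment to GRCm38 and featureCounts for counting, and deposited EO771 values as raw counts per gene symbol. Endothelial values, as deposited, were treated as estimated counts, since they are whole numbers in steps and 1 unit is not 1 fragment. The labels and the methods of the study name different library kits, and the strand setting is not given in the sources used here. Of the EO771 symbols, 33 stand on more than 1 line and 26 were turned into dates, and 260 endothelial identifiers had no symbol in the reference.

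The 12 endothelial libraries were fitted together and the 6 EO771 libraries apart, with the Wald test of DESeq2 1.42.0 (R 4.3.3) and Benjamini-Hochberg adjustment over all genes with a mean of at least 10. A call needed an adjusted p under 0.05 and a fold change over 2. Alternatives were edgeR 4.0.16 (quasi-likelihood test), TMM factors, no filter, a replicate block, values divided by their step, only the 2 groups compared, and each library left out. Counts of the other pathway genes under these alternatives were added after the data were seen. Counting intervals are exact at 95% for fragments summed over the libraries of a group, and leave out the spread between libraries. The fits were also run on simulated counts of fixed spread. These lacked the steps of the endothelial values, so that run says nothing of how the fits handle such steps.

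The members and gene lists were chosen with earlier results of these data known. Besides the 10 genes, the text names up to 5 called pathway genes per direction and comparison, those with the largest changes among genes with a group mean of at least 100, and the 3 genes most like Znrf3 and Sp5 in pattern. Lgr4, Ctnnb1, Tcf7l1, Tcf7l2 and the BEC, EO771 and interaction values of Lgr6 were chosen after their values were seen. They are given with no p-value.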

Additional observations from a re-analysis of the deposited data

Results flagged for a closer look

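The change with tumour differed between the endothelial cell types for 2 of the listed genes, by the interaction term of the fit over 12 libraries. For Sp5 the log2 change in HECs less that in BECs was -4.40, from 3.91 in BECs and -0.49 in HECs. For Axin2 it was -3.12, from 2.87 in BECs and -0.25 in HECs. Both differences rest on BEC normal libraries with 4 fragments of Sp5 and 3 of Axin2. With values divided by their step, Axin2 fell under the filter, so that setting gives no difference for it.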

How the results depend on the processing

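In EO771 cells the counts of listed genes called stayed at 2 higher and 0 lower under every alternative run. In endothelial cells, dividing values by their step left fewer genes over the filter, and Axin2, Lef1 and Nkd1 fell under it. That setting gave 1 listed gene higher and 1 lower in HEC normal against BEC normal. It gave 1 lower in HEC tumour against BEC tumour and 0 lower in HEC tumour against HEC normal. There was 1 higher in BEC tumour against BEC normal, and 1 lower in the interaction. TMM factors gave 0 listed genes higher in HEC tumour against BEC tumour, 0 lower in BEC tumour against BEC normal, and 6 other pathway genes higher in HEC tumour against HEC normal. Fitting only the 2 groups compared gave 2 listed genes lower in BEC tumour against BEC normal and 0 in HEC tumour against HEC normal, where edgeR also gave 0. The cause of these shifts was not tested.

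Whether the replicate numbers pair the samples was not settled. Deviations of same-numbered libraries correlated by at most 0.053 in endothelial cells and by 0.025 to 0.15 in EO771 cells. Those of libraries with other numbers correlated by -0.057 to 0.032 and by -0.11 to 0.033. With the replicate block, 0 listed genes were lower in HEC tumour against HEC normal, and the block changed no other call of a listed gene.

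With 1 library left out, listed genes higher in HEC tumour against BEC tumour ranged from 0 to 1, and listed genes lower from 0 to 2 in HEC tumour against HEC normal, from 0 to 1 in BEC tumour against BEC normal and from 1 to 2 in the interaction. In HEC tumour against HEC normal, the fitted log2 fold change ranged from -4.82 to 0 for Lef1 and from -5.36 to 0 for Tcf7, with 0 reached without HEC normal replicate 2. These fitted values are no sizes of change, since both groups lie at or under 3 fragments. Other pathway genes ranged from 3 to 7 higher and from 4 to 9 lower in that comparison, and from 4 to 8 higher in BEC tumour against BEC normal. Levels near 3 fragments limit what can be said of Lgr5, Rnf43, Notum, Nkd1 and Ascl2 in endothelial cells.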
